A study of Mus musculus with 65 samples.

Results

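The comparison described here is between 3 libraries of cells exposed to 250 nM dTAGV1 for 30 min and 3 DMSO libraries of the same experiment, which together make 6 of the 65 samples of the series. They were chosen by library name from the experiment that also tested A485, called the A485 series, which has 28 libraries in 10 groups. Every group, DMSO included, was the line MEL Mtg16-FKBP-2XHA, mouse erythroleukemia cells in which the corepressor Mtg16 (gene Cbfa2t3) carries an FKBP degradation tag and 2 HA epitopes. The groups used here were dTAGV1 alone for 15 min, 30 min and 1 h, and DMSO, with 3 libraries each. Groups with A485 (10 µM), which blocks the acetyltransferases p300 and CBP, alone or added to dTAGV1, entered the fit to estimate the spread. They also counted in the means that decided which features were tested and which transcript stood for a symbol. The labels do not say how many clones the line represents, how long the DMSO control lasted, or whether libraries came from separate cultures, so p-values measure the spread between these libraries, which may be technical. Mtg16 protein itself was not measured in the files.

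Mtg16 has no DNA-binding domain of its own. It joins complexes nucleated by the transcription factors SCL (Tal1) and Gata1 in erythroid cells and recruits corepressors such as NCoR and histone deacetylases. dTAGV1 links an FKBP-tagged protein to the VHL ubiquitin ligase, which sends the protein to the proteasome. PRO-seq maps engaged RNA polymerases by letting them add a biotin-tagged nucleotide in isolated nuclei, so that it reads transcription as it happens and not the RNA already stored in the cell. dREG sites are regions, mostly promoters and enhancers, recognised from the pattern of such reads on both strands.

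The values are counts normalized with DESeq2 by the authors, called normalized counts below. They are relative to the typical feature of the same library, so a change shared by most genes would not show, and gene levels are not per unit length and are not compared between genes. The 30 min libraries were deeper, with 27.2 to 43.7 M recovered reads in genes and 3.5 to 5.31 M in dREG sites, against 21.4 to 27.3 M and 2.67 to 3.24 M in the DMSO libraries. Erythroid markers were present at summed normalized counts of 29110 to 32390 in the 30 min libraries and 24330 to 25920 in the DMSO libraries (9 of 11 markers in the table, 8 with a mean of at least 10; Slc4a1 and Hba-a1 were not among the table's symbols). Granulocyte and macrophage markers summed to 94.49 to 119 in the 30 min libraries and 77.72 to 110.6 in the DMSO libraries (5 of 10 in the table), and the mast cell list to 0.6502 to 1.146 and 0 to 1.992 (1 of 4 in the table). Lymphoid markers summed to 231.5 to 244.4 and 201.2 to 229.3 (5 of 8), and fibroblast and epithelial markers to 44.13 to 53.31 and 28.88 to 58.19 (2 of 6). No marker in the table was listed at 0 in all 6 libraries. No library stood apart from its group: each differed from the mean of the other libraries of its group with an SD of 0.14 to 0.177 (30 min) and 0.123 to 0.126 (DMSO) on the log2 scale over genes.

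Exposure for 30 min changed many genes by small amounts and a few by more than 2-fold. Of 12597 gene symbols tested (of 15020 in the table), 1429 were higher and 1163 lower in the dTAGV1 30 min libraries than in the DMSO libraries at an adjusted p under 0.05 in limma, a call rate of 20.6% (11.3% higher and 9.23% lower). The median log2 change was 0.30 among the genes called higher and -0.25 among those called lower. A change of at least 2-fold was reached by 72 genes called higher and 29 called lower. SE below is the model's standard error of the log2 change. The 2 groups did not overlap in 37% of all genes tested. The leading genes named below were picked among these, so their separation is not added evidence. Changes in a bulk culture cannot separate fewer cells that transcribe a gene from less transcription per cell.

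**Figure D1:**
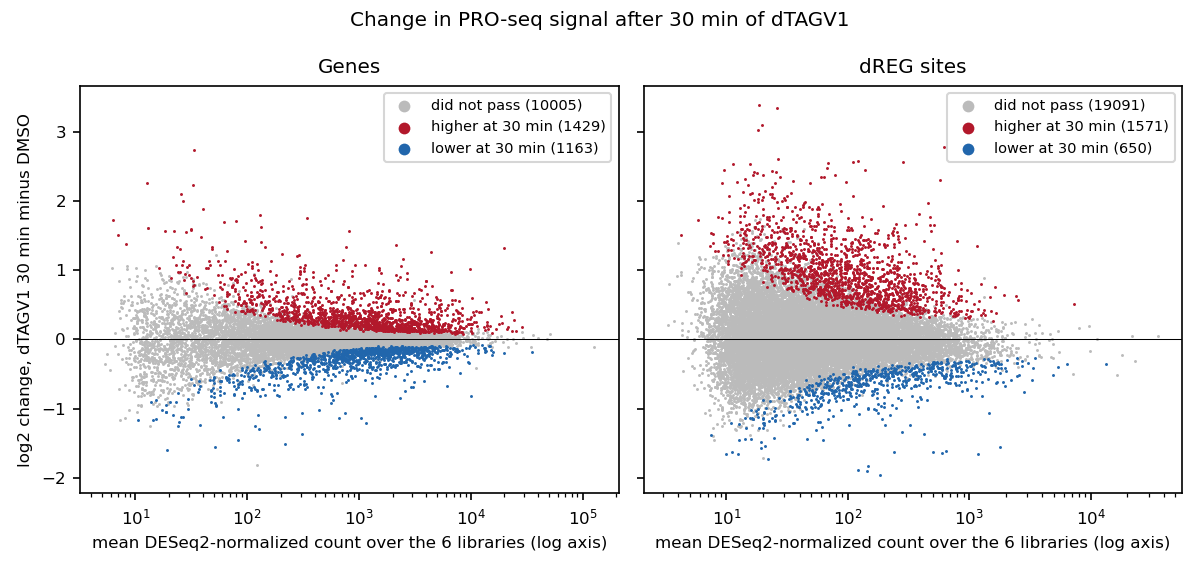
Each point is a gene symbol (left) or dREG site (right), placed by its mean normalized count over the 6 libraries (log axis) and its log2 change, dTAGV1 30 min minus DMSO. Red and blue points passed an adjusted p under 0.05 in limma (1429 genes higher and 1163 lower, 1571 sites higher and 650 lower), and the rises reach further from 0 than the falls in both panels.

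Cbfa2t3, the gene of the tagged protein, was among the largest rises of genes with a mean of at least 1000 normalized counts. It had 27550, 28050 and 28710 normalized counts in the 30 min libraries, against 11530, 10210 and 12070 in the DMSO libraries. The groups were far apart and each was tight. The log2 change was 1.32 (SE 0.11, adjusted p = 2.91e-11, limma). Transcription of a gene does not check that its protein was degraded.

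The 12 largest rises with groups that did not overlap were led by Samd7, a sterile alpha motif protein known from photoreceptors. It had 38.36, 69.91 and 69.05 normalized counts in the 30 min libraries, against 6.326, 9.128 and 7.968 in the DMSO libraries, a log2 change of 2.73 (SE 0.54, adjusted p = 3.28e-04). Every 30 min library lay above every DMSO library, but at a level where few reads carry the estimate. Acvrl1, a type I receptor of the TGF-beta family, followed with 17.55, 20.06 and 26.35 against 1.808, 3.423 and 6.972 normalized counts (log2 change 2.25, SE 0.51, adjusted p = 0.00139). Atp1b1, the beta subunit of the sodium pump, changed by 2.00 on the log2 scale, with means of 43.06 normalized counts in the 30 min libraries and 10.27 in the DMSO libraries. Slc22a4, the ergothioneine transporter of red cell precursors, rose with more reads behind it. It had 511, 498 and 591.5 normalized counts in the 30 min libraries, against 168.1, 156.3 and 148.4 in the DMSO libraries. The groups were more than 300 counts apart, with a log2 change of 1.75 (SE 0.15, adjusted p = 5.09e-11). Msmb (1.70) and the long noncoding or unnamed loci 4921513I03Rik (2.24), Gm41043 (2.10), Gm35202 (1.79), Gm10612 (1.71) and 1700026D11Rik (1.63) were also in this group on the log2 scale, as was Fam167b, a gene with means under 15, whose call was lost under several settings. Samd7, Acvrl1, Gm41043 and Fam167b had DMSO means of 7.807, 4.067, 9.061 and 2.249, under the mean of 10 needed for testing. These genes were tested only because other groups raised their mean over the 28 libraries, and they had little room to fall.

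The largest rises among genes with a mean of at least 1000 were those of Cbfa2t3, Gypc, Car2 and Myb and of 4 others. Frmd4a, a FERM-domain scaffold protein, had 3056, 2977 and 3150 normalized counts in the 30 min libraries, against 1200, 1103 and 1278 in the DMSO libraries. The groups were well separated, with a log2 change of 1.36 (SE 0.07, adjusted p = 1.86e-15). Micall2, which binds actin and Rab GTPases, had means of 3445 and 1538 normalized counts (adjusted p = 4.61e-08). E2f2, the E2F factor of terminal erythroid divisions, changed by 1.07 (SE 0.07), and Prkab1, a regulatory subunit of AMP-activated kinase, by 1.06 (SE 0.05). Myb, the factor that keeps erythroid progenitors dividing, had 13150, 13640 and 13020 normalized counts in the 30 min libraries, against 6432, 6204 and 6990 in the DMSO libraries. All 3 libraries of each group lay close together, and the log2 change was 1.02 (SE 0.05, adjusted p = 1.46e-16).

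**Figure D2:**
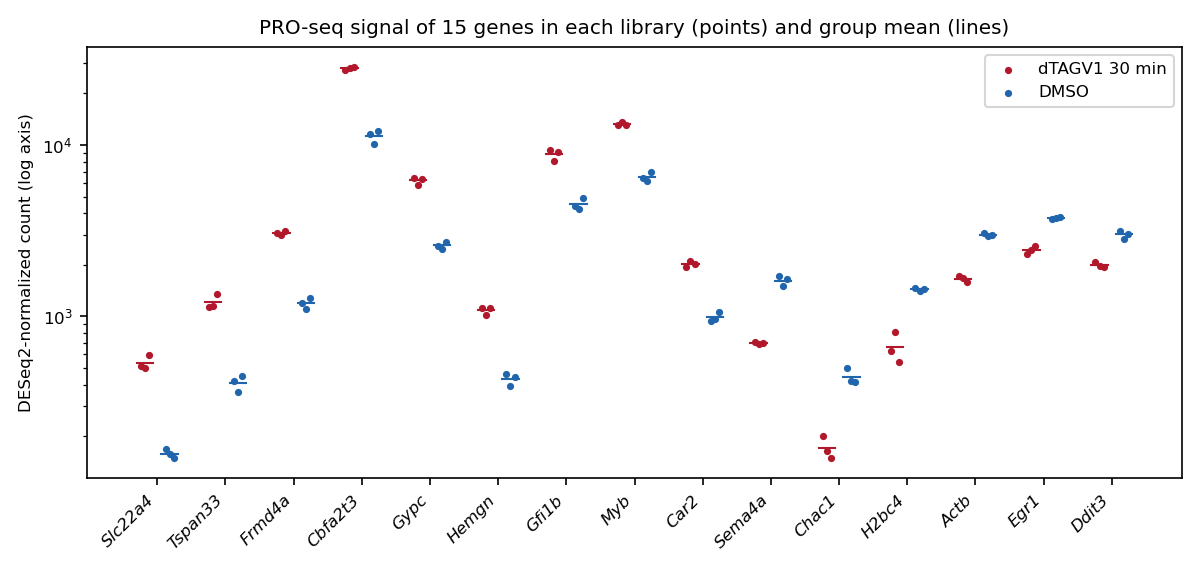
Normalized counts (log axis) of 15 genes, chosen after their values were seen, in each of the 3 dTAGV1 30 min libraries (red, left of each pair) and the 3 DMSO libraries (blue, right), with group means as lines. The groups do not overlap in any of the 15 genes, nor in 37% of all genes tested. Slc22a4 to Car2 are higher and Sema4a to Ddit3 lower at 30 min.

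Most tested genes of red cell differentiation rose. Of 30 tested members of the list of erythroid differentiation and globin genes (33 of 41 in the table), 19 were called higher, against 11.3% of all genes, and 0 lower, while 11 did not pass; the median log2 change was 0.40, against 0.001 over all genes tested. The list holds Hbb-b2 and Hbb-bt, which have identical counts and so give a single value (log2 change 0.85, adjusted p = 0.146, not passed). Gypc, glycophorin C, which anchors the membrane skeleton, had 6453, 5873 and 6358 normalized counts in the 30 min libraries, against 2591, 2485 and 2711 in the DMSO libraries. Its groups were more than 3000 counts apart, with a log2 change of 1.26 (SE 0.08, adjusted p = 1.62e-13). Hemgn, hemogen, a nuclear protein of erythroid cells, had 1125, 1022 and 1113 against 460, 393.6 and 445.2 normalized counts, a log2 change of 1.33 (SE 0.17, adjusted p = 5.76e-07). Car2, carbonic anhydrase 2, had 1941, 2108 and 2024 against 938.1, 966.4 and 1056 (log2 change 1.04, SE 0.07). The groups of both genes stood apart. Smaller rises were measured for Aqp1, the water channel (0.69), Prdx2, the peroxiredoxin of red cells (0.66), and Tfrc, the transferrin receptor (0.62), while Car1, at 26360, 26710 and 27020 against 20290, 20200 and 20630 normalized counts, changed by 0.39 (SE 0.05). Epor, the erythropoietin receptor, and Rhag did not pass (0.23 and 0.07).

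Of 30 tested members of the heme synthesis and iron import list, 11 (36.7%) were higher and 3 (10%) lower (median log2 change 0.14). Over all genes, 11.3% were higher and 9.23% lower. Those that rose included Abcb10, a mitochondrial transporter needed for heme synthesis (0.86, SE 0.06), Cpox (0.57), Alas2, the erythroid enzyme of the first step (0.53, adjusted p = 0.0218), and Fech, which inserts iron (0.53). Alad, Uros and Urod, the enzymes between these steps, did not pass (-0.04, 0.16 and -0.22), nor did Ppox (0.50). Ftl1, the light chain of the iron store ferritin, fell: it had 195.1, 170.2 and 228 normalized counts in the 30 min libraries, against 423.9, 451.8 and 365.5 in the DMSO libraries, a log2 change of -1.07 (SE 0.15, adjusted p = 1.24e-06). Its groups did not overlap, and the other member that fell past 0.5 was Hmox1, the heme-degrading enzyme (-0.53). Of 18 members of the membrane skeleton list, which shares Gypc and other members with the erythroid list, 10 (55.6%) were higher and 2 (11.1%) lower (median 0.31). Epb42, protein 4.2 (1.08), Tmod1, tropomodulin 1 (1.01), Sptb, a spectrin chain (0.72), and Epb41, protein 4.1 (0.29), were among the rises, and Tpm3 (-0.39) and Add1 (-0.14) the falls.

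Promoters of members with a single entry in the RefSeq table (build GRCm38.p6, 250 bases before to 50 after the start) are printed to show where letters that Gata1 is known to prefer, AGATAA or TGATAA on either strand, stand in Hemgn, Epb42 and Gfi1b, beside Slc22a4 and Tspan33, which rose and do not hold them; the 5 genes were chosen after their values were seen. The capitals mark these letters, and each run reads 5′ to 3′ in the direction of the gene.
Hemgn, chr4:46404134-46404433, minus strand: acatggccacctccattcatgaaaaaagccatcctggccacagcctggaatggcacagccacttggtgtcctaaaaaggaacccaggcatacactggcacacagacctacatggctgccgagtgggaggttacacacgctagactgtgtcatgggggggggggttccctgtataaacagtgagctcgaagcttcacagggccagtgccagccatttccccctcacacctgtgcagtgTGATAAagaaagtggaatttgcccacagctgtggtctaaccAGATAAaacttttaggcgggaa
Epb42, chr2:121036828-121037127, minus strand: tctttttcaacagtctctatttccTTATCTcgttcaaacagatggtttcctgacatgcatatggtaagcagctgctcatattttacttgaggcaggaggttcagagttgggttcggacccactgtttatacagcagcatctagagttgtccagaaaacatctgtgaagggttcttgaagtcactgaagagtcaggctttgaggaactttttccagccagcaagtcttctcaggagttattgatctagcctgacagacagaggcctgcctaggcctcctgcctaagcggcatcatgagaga
Gfi1b, chr2:28621933-28622232, minus strand: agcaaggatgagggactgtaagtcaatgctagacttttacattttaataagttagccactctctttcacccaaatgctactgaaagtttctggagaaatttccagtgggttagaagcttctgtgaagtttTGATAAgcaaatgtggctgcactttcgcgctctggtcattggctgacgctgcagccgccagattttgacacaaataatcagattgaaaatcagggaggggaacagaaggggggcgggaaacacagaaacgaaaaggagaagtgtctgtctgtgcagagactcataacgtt
Slc22a4, chr11:54028055-54028354, minus strand: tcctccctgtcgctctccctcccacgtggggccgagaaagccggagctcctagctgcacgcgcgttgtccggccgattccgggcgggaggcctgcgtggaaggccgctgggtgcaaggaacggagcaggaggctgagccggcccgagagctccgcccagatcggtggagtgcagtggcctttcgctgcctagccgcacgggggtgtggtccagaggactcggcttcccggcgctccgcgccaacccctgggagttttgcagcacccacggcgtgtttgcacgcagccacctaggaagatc
Tspan33, chr6:29693964-29694263, plus strand: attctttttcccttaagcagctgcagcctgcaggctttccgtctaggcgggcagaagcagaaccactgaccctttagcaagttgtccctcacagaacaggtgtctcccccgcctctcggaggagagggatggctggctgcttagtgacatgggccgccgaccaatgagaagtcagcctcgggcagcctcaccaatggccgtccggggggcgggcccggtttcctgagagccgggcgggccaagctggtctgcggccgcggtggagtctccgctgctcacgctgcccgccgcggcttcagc
Over the 8042 tested genes with a single promoter in the table, these Gata letters were in 9.76%. They were in 10.2% of 864 promoters of genes called higher, in 11.4% of 730 promoters of genes called lower, and in 8 of 49 promoters (16.3%) of genes that rose at least 2-fold. The search was first made with AGATAA alone and widened after the sequences were seen; AGATAA alone was in 6.32% of all, 6.71% of those called higher, 7.67% of those called lower and 16.3% of the 49. The letters CAGATG, an E-box of the kind the SCL complex is known to use, were in 9.95% of the promoters of genes called higher, 11.8% of those called lower, 12.2% of the 49 and 10.9% of all. TGTGGT, the core Runx letters, were in 11.5%, 12.5%, 20.4% and 12.8% of the same sets, and CCACCC, the letters of KLF factors, in 37.3%, 39.2%, 46.9% and 36.2%, with both strands searched each time. CAGATG and the Gata letters can overlap. These shares describe letters and were not tested.

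Among 37 transcription factors of the SCL/Gata1 complex and the blood lineage, 17 were called higher and 5 lower (median log2 change 0.12), but 10 were called higher when DMSO replicate 4 was left out. With all libraries the shares were 45.9% and 13.5%, against 11.3% and 9.23% of all genes. Gfi1b, a repressor required for red cells and platelets, had 9389, 8036 and 9146 normalized counts in the 30 min libraries, against 4389, 4234 and 4926 in the DMSO libraries. Its groups were more than 3000 counts apart, with a log2 change of 0.97 (SE 0.08, adjusted p = 7.51e-11). Erg, an ETS factor of stem cells and megakaryocytes, had 388.8, 389.7 and 385.2 against 146.4, 167.7 and 191.2 (log2 change 1.21, SE 0.14, adjusted p = 3.51e-08). The partners of Mtg16 changed less: Gata1 by 0.44 (SE 0.09), Lyl1, a relative of SCL, by 0.44 (SE 0.10), Tal1 itself by 0.26 (SE 0.05), Zfpm1, the Gata1 cofactor Fog1, by 0.25 (SE 0.06) and Runx1 by 0.18 (SE 0.03). Lmo2 (0.19), Ldb1 (0.03) and Gata2 (0.27) did not pass. Klf1, the activator of adult globin genes, was called (0.34, adjusted p = 0.0475) although its groups overlapped, with 1025, 788.5 and 1235 against 736.6, 797.6 and 842.6 normalized counts. The 5 that fell were Cbfb, the Runx partner (-0.43, SE 0.05), Zbtb7a (-0.32), Spi1 (-0.18), Runx3 (-0.18) and Lmo4 (-0.16).

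Other blood lists moved less or in both directions. Shares called higher and lower were 21.1% and 0% for platelet genes, 18.8% and 9.38% for cytokine receptor genes, and 6.67% and 20% for granulocyte genes. Over all genes they were 11.3% and 9.23%. Of 19 tested platelet and megakaryocyte genes, 4 were higher and 0 lower, led by Pdgfb (0.51) and F2r, the thrombin receptor (0.45), while Itga2b, which marks the lineage, did not pass (-0.13). Of 32 cytokine receptor and JAK-STAT genes, 6 were higher and 3 lower: Il9r, the interleukin 9 receptor, changed by 0.66 (SE 0.12) and Csf2rb, the common beta chain, by 0.59 (SE 0.08), and Osm (-0.47), Pim2 (-0.51) and Pim3 (-0.32) fell. Of 15 granulocyte, macrophage and inflammatory genes, 1 was higher (Csf2rb) and 3 lower, Vim (-0.82), Anxa2 (-0.77) and Tnf (-0.72), of which Vim and Anxa2 are also made by many other cells. Of 4 mast cell genes, Il1rl1 was higher (0.94, adjusted p = 0.007). None of 4 lymphoid genes, 5 neuronal, epithelial and fibroblast genes and 7 Notch, Id and Hes genes passed.

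Of 25 members of the Mtg family and corepressor list, with a median log2 change of 0.014, 7 were called, against 20.6% of all genes. Of these, 4 were higher, Cbfa2t3, Mta2 (0.46), Zfpm1 and the relative Cbfa2t2 (0.12, SE 0.04), and 3 lower, Chd4 (-0.27), Sin3b (-0.14) and Rcor1 (-0.12). Of 20 acetyltransferase and bromodomain genes, 1 was higher and 3 lower, with Ep300 at -0.02 and Crebbp at -0.06, neither passed. Of 27 genes of P-TEFb and elongation control, 2 were higher, Ell2 (0.22) and Aff1 (0.12), and 2 lower, Ell (-0.19) and Rtf1 (-0.14). Of 44 genes of the Myc network and ribosome biogenesis, 1 was higher and 5 lower, and Myc did not pass (0.16). Of 33 cell cycle genes, 4 were higher, E2f2, Mki67 (0.54), Rb1 (0.24) and Aurka (0.22), and 4 lower, including Ccnd2, cyclin D2 (-0.43), and Cdkn1a, the p21 inhibitor (-0.35). Over all genes, 11.3% were higher and 9.23% lower. The shares were 12.1% each way for cell cycle genes and 7.41% each way for elongation control. They were 5% and 15% for acetyltransferase and bromodomain genes, and 2.27% and 11.4% for the Myc network.

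**Figure D3:**
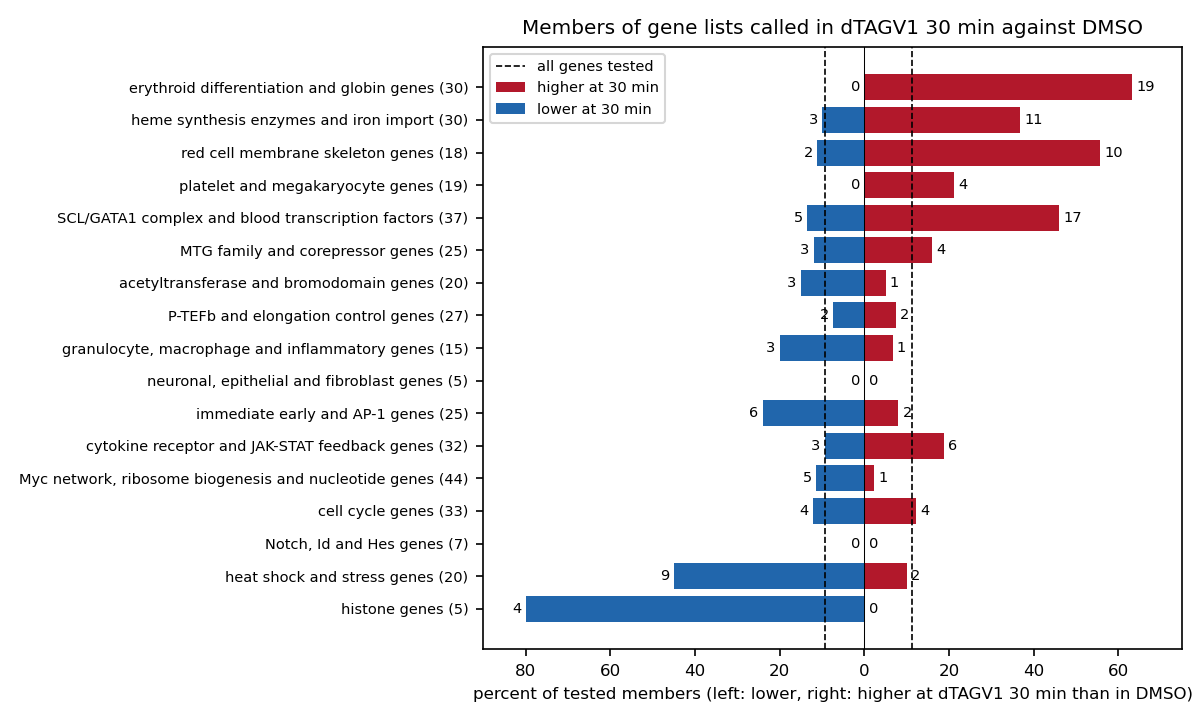
Percent of the tested members of each gene list (number tested in parentheses) that were called higher (red, right of 0) or lower (blue, left of 0) at dTAGV1 30 min than in DMSO, with the counts at the bar ends; dashed lines mark the 11.3% higher and 9.23% lower of all genes tested. The erythroid list has 19 of 30 members higher and 0 lower, and the heat shock and stress list 9 of 20 lower.

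The largest fall of a gene with a mean of at least 1000 normalized counts was in Sema4a, a class 4 semaphorin. It had 706.7, 685.4 and 701.4 normalized counts in the 30 min libraries, against 1709, 1500 and 1643 in the DMSO libraries, with a log2 change of -1.21 (SE 0.08, adjusted p = 1.27e-13). Chac1, a glutathione-degrading target of the amino acid stress response, had 201.6, 163.9 and 149 against 498, 418.8 and 415.3 (log2 change -1.37, SE 0.13, adjusted p = 3.62e-10). The groups of both genes were far apart. Actb, beta-actin, had 1722, 1673 and 1586 normalized counts in the 30 min libraries, against 3050, 2950 and 3001 in the DMSO libraries, a log2 change of -0.85 (SE 0.06, adjusted p = 3.48e-13), and the groups were more than 1000 counts apart. Other falls of genes with a mean of at least 1000 were Neat1, the paraspeckle RNA (-0.82), Baiap2 and Flna, which shape actin (-0.81 and -0.74), Shank3, a synaptic scaffold (-0.69), and Ankrd36 (-0.68). The largest falls by size were in Gm14379 (-1.60) and in Slc6a2, the noradrenaline transporter, with 25.36, 25.22 and 26.35 against 80.43, 81.01 and 71.71 normalized counts (-1.56, SE 0.23). Beside Chac1 and Sema4a, the others past -1.2 were H2bc22 (-1.52), Apol8 (-1.46), Zfp970 (-1.29), Acr (-1.25), Adm2 (-1.24) and A630066F11Rik (-1.25), which like Eva1b (-1.19) and Ccdc74a (-1.14) had low counts and lost the call in 4 alternatives.

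Of 20 members of the heat shock and stress list, 9 (45%) were lower and 2 (10%) higher (median -0.17). Over all genes, 9.23% were lower and 11.3% higher. Beside Chac1, Ddit3 (Chop), a factor of the integrated stress response, had 2073, 1973 and 1941 normalized counts in the 30 min libraries, against 3147, 2834 and 3042 in the DMSO libraries (log2 change -0.59, SE 0.07, adjusted p = 1.33e-07), and Trib3 (-0.47), Dnaja1 (-0.38), Dnajb1 (-0.38), Atf4 (-0.31) and Hsp90aa1 (-0.29) fell. Hsph1 (0.30) and Asns, asparagine synthetase (0.27), rose. Of 25 immediate early genes, 6 (24%) were lower and 2 (8%) higher (median -0.33). Atf3 (means of 54.86 at 30 min and 109.7 in DMSO), Ier2 (-0.65), Egr1 (-0.62), Dusp5 (-0.42), Fosl1 (-0.42) and Srf (-0.33) fell, and Btg2 (0.49) and Zfp36l2 (0.32) rose, while Fos, at -0.54, did not pass. Replication-linked and other histone genes, a list chosen after their values were seen, were lower in 4 of 5 tested symbols: H2bc4 had 631.3, 813.8 and 541.5 against 1460, 1403 and 1446 normalized counts (-1.14, SE 0.13), H2bc21 and H2bc22 changed by -1.14 and -1.52, H1f0 by -0.51, and H2bc6 did not pass (-0.09). Reads of near-identical histone genes could have been divided among copies.

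At transcribed regulatory sites, more rises than falls were called. Of 21312 dREG sites tested (of 29632 in the table), 1571 were higher and 650 lower in the 30 min libraries than in the DMSO libraries (limma, adjusted p under 0.05), a call rate of 10.4% (7.37% higher and 3.05% lower). The median log2 change was 0.91 among sites called higher and -0.61 among those called lower, and at least 2-fold changes numbered 668 up and 84 down. The excess of rises depended on level. In the lowest of 5 groups of sites by DMSO mean, 270 were higher and 4 lower, and 258 of these rises were at least 2-fold. In the highest group, 371 were higher and 378 lower. Sites were tested on their mean over the 28 libraries, so sites near 0 in DMSO entered through other groups and had little room to fall. The sites called higher were wider, with a median of 1070 bases against 840 for sites that fell and 700 for all. The count moved to 1102 without DMSO replicate 4 and to 1372 without dTAGV1 30 min replicate 6. The share of rises among called sites, 70.7% as scaled by the authors, was 83% when dREG reads were scaled with the size factors of the gene table and 60.5% in edgeR with TMM on recovered reads.

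The site with the smallest p among the leading ones, chr5:24127301-24129170 (mm39, as are all sites below), had 1043, 1175 and 1000 normalized counts in the 30 min libraries, against 126.2, 180.1 and 166.7 in the DMSO libraries. The groups were more than 800 counts apart, with 5030 recovered reads at 30 min and 470 in DMSO, and the log2 change was 2.77 (SE 0.14, adjusted p = 1.68e-16). The site chr2:4565441-4566220 had 489.3, 419.6 and 559.3 against 78.66, 96.73 and 70.58 normalized counts (log2 change 2.57, SE 0.22, adjusted p = 1.57e-10). The site chr15:27871931-27874290 had 906.3, 1011 and 933.1 against 191.2, 185.7 and 196.1 (log2 change 2.31, SE 0.19), and chr8:123438901-123440730 changed by 1.97 (SE 0.20). All 3 rose without overlap of the groups, by which the named sites were picked. Over all sites tested, 30.9% had groups that did not overlap. The largest rises by size were in sites with few reads in DMSO: chr2:127926911-127927410 had 31.4, 27.9 and 43.82 normalized counts, against 1.829, 3.335 and 1.961 (log2 change 3.39, SE 0.53, adjusted p = 2.54e-05; 154 recovered reads against 7), and chr8:117812491-117813440 changed by 3.35 (SE 0.48; 211 reads against 11). Other sites among the largest rises were chr10:20930991-20931560 (3.02), chr9:63498551-63499830 (2.60) and chr7:79792651-79794320 (2.57, SE 0.22).

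Some of the leading falls lay close together. Of the 10 named sites that fell, 5 were on chromosome 13 between 21932491 and 23927460. There, chr13:23741061-23741380 had 320.5, 241.1 and 301.6 normalized counts in the 30 min libraries, against 967.7, 892.8 and 831.3 in the DMSO libraries (log2 change -1.65, SE 0.18, adjusted p = 2.99e-08), and chr13:23743981-23744890 had 88.85, 67.52 and 67.02 against 355.8, 313.5 and 217.6 (-1.96, SE 0.23). The groups of both sites stood apart. The other 3, chr13:21932491-21932960, chr13:23926131-23927460 and chr13:22012951-22015520, changed by -1.88, -1.63 and -1.63. In the stretch chr13:23000001-24000000, 8 of 14 tested sites were lower and 1 higher, against 3.05% lower over all sites. This stretch was picked for its count of falls, and chr9:21000001-22000000 also held 8, among 90 tested sites. Off chromosome 13, chr3:87316571-87317340 had 537.3, 623.8 and 550.8 against 1964, 1675 and 1774 normalized counts (-1.66, SE 0.12, adjusted p = 1.55e-12), and chr1:21413821-21415010 (-1.91), chr1:23865841-23867350 (-1.83), chr1:75496791-75497080 (-1.73) and chr7:112903581-112904230 (-1.65) fell as well. Rises were spread over the chromosomes, from 4.68% of tested sites on X to 10.8% on 18, leaving out Y with 0 of 15, and the densest stretch, chr10:21000001-22000000, held 9 rises and 0 falls among 19 sites. Of the sites called higher, 438 had another within 10000 bases, and of those called lower, 139. The share over all tested sites was not measured, so these counts do not show clustering. Which genes lie beside these sites is not analysed here.

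The 30 min libraries were also set directly against the 15 min libraries, since both share the DMSO libraries. Of 12597 genes, 278 were higher and 436 lower at 30 min than at 15 min (5.67% called, 2.21% higher and 3.46% lower). The count depended on single libraries: it was 357 to 429 without replicate 5 or 6 of the 30 min group or any 1 of the 15 min group, 844 without 30 min replicate 4, and 1149 (522 higher, 627 lower) in edgeR. Cbfa2t3 itself was still rising, with means of 17350, 28100 and 50990 normalized counts at 15 min, 30 min and 1 h, a log2 change of 0.70 (SE 0.11, adjusted p = 6.84e-05) for 30 min against 15 min and 0.86 (SE 0.11, adjusted p = 1.59e-06) for 1 h against 30 min. Slc22a4 rose by 0.89 and then 1.14, Tspan33, a tetraspanin of erythroid progenitors, by 0.73 and 0.44, Gypc by 0.66 and 0.40, Ak8, an adenylate kinase, by 0.65 and 1.11, and Smox, spermine oxidase, by 0.59 and 0.70, each passing in both steps. At 30 min Tspan33 had 1131, 1151 and 1355 normalized counts, against 418.4, 362.8 and 451.2 in DMSO, without overlap.

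Other genes changed less in the second step or passed in neither. Car2 rose from 15 min to 30 min (0.47, adjusted p = 1.82e-05) but its change from 30 min to 1 h was -0.02 (SE 0.07, adjusted p = 0.918). Myb passed in both, rising by 0.55 from 15 min to 30 min and by 0.17 (adjusted p = 0.0198) in the step to 1 h. For Hemgn, Gfi1b and Gata1, whose means were higher at each time, neither step passed (0.22 and 0.27, 0.23 and 0.22, 0.18 and 0.24), and for Sptb both were small (-0.01 and 0.11). Of the erythroid list, with 30 tested members, 5 were higher and 0 lower at 30 min than at 15 min, and 3 and 0 at 1 h against 30 min. Over all genes, 2.21% were higher in the first step and 5.64% in the second.

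The falls between 15 and 30 min included immediate early genes whose highest mean was at 15 min. Egr1 had means of 3747, 5055, 2439 and 2129 normalized counts in DMSO and at 15 min, 30 min and 1 h, with a log2 change of -1.05 (SE 0.05, adjusted p = 8.48e-16) for 30 min against 15 min. Fosl2, an AP-1 member, had means of 780.8, 1209, 669.6 and 585.5 in the same order (-0.85, adjusted p = 8.63e-08). Both were high at 15 min and lower afterwards. Dgat1, the triglyceride-forming enzyme, fell too (-0.85), with 565.6, 559.3 and 493.3 normalized counts at 30 min, against 480.8, 505.5 and 540.8 in DMSO, which overlap. Of the 25 immediate early genes, 5 were lower and 0 higher at 30 min than at 15 min, against 3.46% lower and 2.21% higher of all genes. Actb changed by -0.70 between 15 and 30 min (adjusted p = 5.26e-10) and Zfp651 by -1.01. Rplp1 (-0.88) and Rnf223 (-0.87) passed with low counts and lost the call in several alternatives.

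Between 30 min and 1 h, 711 genes were higher and 517 lower (9.75% called, 5.64% higher and 4.10% lower), and 637 in all without 1 h replicate 5. Of 1163 genes called lower at 30 min against DMSO, 180 were called higher and 41 lower at 1 h against 30 min. Of 1429 genes called higher, 186 were called higher and 156 lower in this step. Both comparisons share the 30 min libraries, so these counts are not independent of the calls at 30 min. Some of the genes that were low at 30 min were thus higher again at 1 h. Siglec1, a macrophage adhesion receptor, had 83.22, 77.36 and 79.04 normalized counts at 30 min, against 182.6, 159.7 and 170.3 in DMSO (-1.09, adjusted p = 1.68e-07), and its mean at 1 h was 182.4, a log2 change of 1.18 (adjusted p = 2.15e-07) for 1 h against 30 min. Slc6a2 changed by 0.92, Acr by 0.82 and Chac1 by 0.48 in that step, all passing, whereas H2bc4 fell further by 0.82 (adjusted p = 9.11e-05). Genes that led this step without a call at 30 min against DMSO were Gpr179 (1.23), Lrrc75b (1.24), 1500035N22Rik (1.65), Apbb1 (1.27) and Slc38a1 (1.15) upward, and Lhfpl3 (-1.39), Cntnap5a (-1.13), Snhg3, a snoRNA host (-1.03), Rims1 (adjusted p = 0.0412), Ier3 (-0.93) and Rps23 (-0.90) downward. All but Gpr179, Lrrc75b, Snhg3 and Rps23 lost the call in at least 1 alternative.

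**Figure D4:**
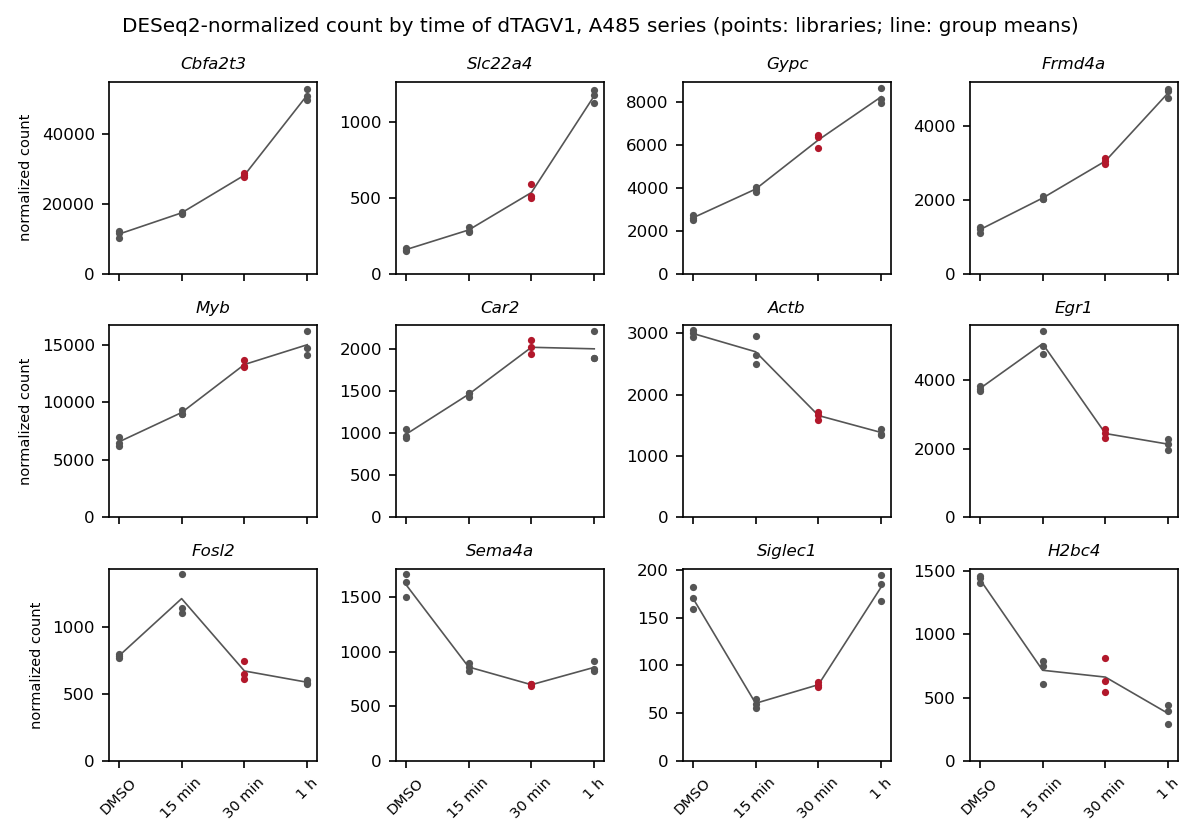
Normalized counts of 12 genes, chosen after their values were seen, in each library (points) of DMSO and dTAGV1 for 15 min, 30 min (red) and 1 h, with lines through the group means and each vertical axis starting at 0. Cbfa2t3, Slc22a4, Gypc and Frmd4a climb at each time, Car2 is level from 30 min, Egr1 and Fosl2 are highest at 15 min, and Siglec1 is back near its DMSO level at 1 h.

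At dREG sites almost no difference between 30 min and 15 min was called. Of 21312 sites, 1 was higher and 10 lower (0.0516% called, 0.00469% higher and 0.0469% lower), with 1239 at an unadjusted p under 0.05, and edgeR called 43. The count was 4 to 7 without replicate 5 or 6 of the 30 min group or replicate 4 or 5 of the 15 min group. The site that rose, chr14:31903511-31905350, had 693.7, 968.7 and 800.8 normalized counts at 30 min and means of 505 at 15 min and 521.6 in DMSO (log2 change 0.69 against 15 min). The site that fell most, chr3:88571261-88572410, had 451.4, 648.4 and 351.4 at 30 min and means of 1229 at 15 min and 468.6 in DMSO (-1.38 against 15 min). The strongest site against DMSO, chr5:24127301-24129170, had means of 822.6 and 1236 at 15 min and 1 h, and neither step passed (0.38, adjusted p = 0.762, and 0.21, adjusted p = 0.522). A p that misses the threshold does not show that the levels were equal. Between 30 min and 1 h, 357 sites were higher and 272 lower (2.95% called, 1.68% higher and 1.28% lower). The count was 266 to 354 without 1 h replicate 5 or 6 or 30 min replicate 4 or 5, and 1546 in edgeR. The falling site chr13:23741061-23741380 dropped on to a mean of 70.69 at 1 h (-2.02, adjusted p = 3.29e-09).

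The same treatment and time were measured in another experiment of the series, the time course, with 3 libraries of 30 min dTAGV1 and 3 of DMSO of its own. Its 30 min replicate 3 stood apart: it differed from the mean of the other libraries of its group with an SD of 0.493 over genes, against 0.27 and 0.261 for replicates 1 and 2, and 15 min replicate 2, which shares the fit, did so with 0.344 against 0.227 and 0.229. Values are therefore given with and without these 2 libraries. With all 9 libraries of the fit, 524 genes were higher and 47 lower of 12758 (4.48% called, 4.11% higher and 0.368% lower), and without them 1316 and 856 of 12751 (17.0%, 10.3% higher and 6.71% lower). With all libraries, the count was 276 to 324 when any 1 DMSO library was left out.

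Of 1427 genes called higher and tested in both, 345 were also called higher in the time course, and 981 (68.7%) had a change above 0 there. Without the 2 libraries, 636 were called higher and 34 lower, and 1086 (76.1%) had a change above 0. Of 1163 genes called lower, 603 (51.8%) were lower in the time course, 24 of them called, and without the 2 libraries 712 of 1162 (61.3%), 214 called so and 61 called higher. Over all genes tested in both with the full fit, the sign was shared by 52.1% of those higher and 55.2% of those lower in the A485 series. Cbfa2t3 had 112100, 108200 and 165000 normalized counts in the time-course 30 min libraries, against 28760, 23510 and 19180 in its DMSO libraries (log2 change 2.42, SE 0.35, adjusted p = 0.00295; 2.23 without the 2 libraries). Gypc had 9502, 9648 and 9992 against 2952, 2608 and 2585 (1.84, SE 0.20), without overlap. Myb had 25520, 24440 and 7418 against 9674, 8414 and 8180, so that replicate 3 lay below DMSO and the change of 0.93 did not pass (adjusted p = 0.24), while without the 2 libraries it was 1.52 (adjusted p = 3.96e-09). The erythroid list had 17 of 30 members higher and 0 lower there, and 24 and 0 without the 2 libraries, whereas platelet and megakaryocyte genes had 10 of 19 higher, and 13 without. Over all genes, 4.11% were higher there, and 10.3% without the 2 libraries.

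Several of the falls did not pass in the time course. Actb had 1826, 1784 and 3251 normalized counts in the time-course 30 min libraries, against 1864, 2158 and 2545 in its DMSO libraries, with a log2 change of 0.02 (adjusted p = 0.973; -0.27, adjusted p = 0.105, without the 2 libraries). Chac1 had 212.3, 186.4 and 159 against 163.6, 238.2 and 263.8 (-0.23, adjusted p = 0.582), with overlap. Slc6a2 also overlapped, with a log2 change of 0.19 (adjusted p = 0.814, limma), and -0.0048 (adjusted p = 0.994) without the 2 libraries. Sema4a had 1455, 1389 and 399 against 2253, 2309 and 2138 and lay below DMSO in every library, with -1.26 (adjusted p = 0.115) and, without the 2 libraries, -0.65 (adjusted p = 1.67e-06). The heat shock and stress list, 9 of 20 lower in the A485 series, had 0 lower and 1 higher there, where 0.368% of all genes were lower, and 5 lower and 1 higher without the 2 libraries, where 6.71% were lower. The histone list, 4 of 5 lower in the A485 series, had 0 of 5 lower in the time course and 1 of 5 without the 2 libraries. H2bc4 had 2117, 2278 and 534.6 against 1978, 1960 and 2859 normalized counts in the time course, with overlap. Its change was -0.70 (adjusted p = 0.434, limma), and -0.02 (adjusted p = 0.951) without the 2 libraries. The difference between experiments was not tested, since the tables were normalized separately.

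At dREG sites, 2038 were higher and 321 lower of 23175 in the time course (10.2% called, 8.79% higher and 1.39% lower), and 2266 and 571 of 22978 (12.3%, 9.86% higher and 2.48% lower) without the 2 libraries; without DMSO replicate 2 the count was 1568. Of 1553 sites called higher in the A485 series and tested in both, 1363 (87.8%) were higher in the time course, 846 of them called, and 1343 of 1550 (86.6%) without the 2 libraries, 900 called. Of 648 sites called lower, 479 (73.9%) were lower, 33 called, and without the 2 libraries 443 (68.4%), 50 called. Over all sites tested in both, the sign was shared by 57% of the higher and 66.9% of the lower ones. The site chr5:24127301-24129170 had 1584, 1654 and 1939 normalized counts in the time-course 30 min libraries, against 231.6, 165.4 and 190.9 in its DMSO libraries (log2 change 3.14, adjusted p = 1.68e-08), far apart as in the A485 series. The falling site chr13:23741061-23741380 had 336.9, 382 and 32.47 against 396, 604 and 823.1, and its change of -1.84 (adjusted p = 0.0775) was -0.70 (adjusted p = 0.0363) without the 2 libraries. The site chr1:23865841-23867350, which fell in the A485 series, changed by 0.10 (adjusted p = 0.815, limma), and by 0.25 (adjusted p = 0.407) without them. At each of the 5 named sites on chromosome 13, replicate 3 was the lowest of its group, and the change lay nearer 0 without the 2 libraries.

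**Figure D5:**
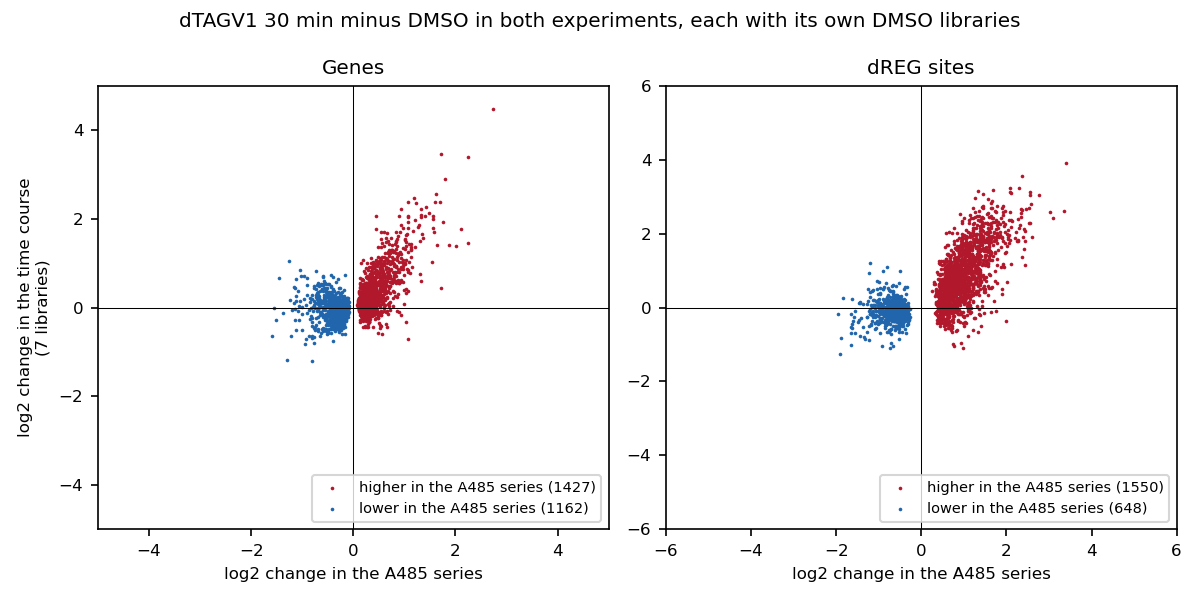
Log2 change, dTAGV1 30 min minus DMSO, in the A485 series (horizontal) and in the time course without the 2 libraries that stood apart (vertical, a fit of 7 libraries) for genes (left) and dREG sites (right) called in the A485 series. Red points, higher in the A485 series, lie mostly above 0 in the time course (76.1% of genes and 86.6% of sites), and blue points scatter more evenly around 0.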

How the data were processed

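The deposited signal in genes and dREG sites was, per the labels, read counts that the authors had normalized with DESeq2 (1.46.0). Tools credited to the submitters' processing notes are featureCounts 2.0.1 and Bowtie2 2.2.2, with bedtools and HOMER, and the builds are dm3 and mm39; no source used here states filters or strand. Every value was a whole multiple of its library's smallest step (tolerance 0.1), which gave the reads behind it (100% of values whole); 26 other per-sample columns of these files were not used. Each of 15020 symbols was represented by its highest transcript of 25857; for 282 symbols the lowest transcript was under 0.5 times the highest, and 12 tested symbols had values identical to another symbol's. The test, for features whose mean reached 10, was limma 3.58.1 with a trended prior (R 4.3.3), on log2(value + 1), a scale that understates the change of low features, in a fit of 10 groups (28 libraries), with Benjamini-Hochberg adjustment at 0.05. SE is the model's standard error. edgeR 4.0.16 and DESeq2 1.42.0 on the recovered reads were alternatives. Scripts were tested on simulated data.

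Named were Cbfa2t3, the 12 largest rises and falls with groups that did not overlap, the 8 largest with a mean of at least 1000, the 6 largest of each step in time, list members, and for sites the 8 largest and the 4 largest with a mean of at least 200. The members, lists and comparisons were chosen with earlier results of these data known. Replicate numbers 4 to 6 were not treated as pairs. Deviations of libraries with the same number correlated from -0.021 to 0.07 over genes, which cannot show that these libraries were unrelated. Promoters are from RefSeq; 8042 of 12597 tested symbols had 1 entry. Libraries of the time course whose labels disagree were left out. Some named items are not reported here.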

Additional observations from a re-analysis of the deposited data

Results flagged for a closer look

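In 3 of the named genes, every dTAGV1 30 min library lay below every DMSO library in the A485 series, and every 30 min library lay above every DMSO library in the time course. The difference between the experiments was not tested, because their tables were normalized separately. Acr, acrosin, had 70.22, 76.22 and 60.87 normalized counts at 30 min, against 161.8, 159.7 and 174.3 in DMSO, in the A485 series (log2 change -1.25, adjusted p = 1.08e-07, limma), and 166.7, 213.1 and 196.4 against 74.35, 107.4 and 93.41 in the time course (1.07, adjusted p = 0.016; 1.05, adjusted p = 0.00168, without the 2 libraries that stood apart). Shank3 changed by -0.69 in the A485 series and had 6885, 7172 and 10830 against 6169, 6368 and 5022 in the time course (0.48, adjusted p = 0.159; 0.27, adjusted p = 0.0277, without the 2 libraries). Apol8, an apolipoprotein L gene, changed by -1.46 in the A485 series and had 197.7, 214.2 and 165 against 146.8, 142 and 101.7 in the time course (0.57, adjusted p = 0.155; 0.68, adjusted p = 0.0247, without the 2 libraries). Groups had 3 libraries, too few for a test of single outlying libraries.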

How the results depend on the processing

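Of 176 counts recomputed under alternatives, 145 stayed within 1.5 times the reported count and 31 did not; of 1076 values of named genes and sites, 1023 kept direction and call, 53 lost the call and 0 reversed. The cause was not tested unless stated. Testing every transcript gave 4035 called genes (2212 higher, 1823 lower) from more features. edgeR called 1149 genes for 30 min against 15 min and, at sites, 3385 against DMSO, 43 against 15 min and 1546 for 1 h against 30 min. A fit of the 12 libraries of DMSO and dTAGV1 alone gave 40 and 1370 sites for these steps. With only the 6 libraries of the 30 min and DMSO groups, 2651 genes and 3032 sites were called against DMSO. Replicate numbers were not treated as pairs. Correlations of deviations were -0.059 to 0.089 at sites, which cannot show that libraries sharing a number were unrelated. With the replicate number as a block in fits of these 6 libraries, 2877 genes and 3215 sites were called against DMSO. Blocked fits of the 12 libraries gave 807 genes and 31 sites against 15 min, and 1420 genes and 1254 sites for 1 h against 30 min. The same 12 libraries without a block gave 979 and 1616 genes, beside the 40 and 1370 sites above. A blocked fit of the 9 time-course libraries gave 407 genes and 2226 sites. DESeq2 called 2903 genes and 3199 sites (2197 higher, 1002 lower), and gene-table scaling 2068 sites (1716 higher, 352 lower).

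Leaving out each library in turn gave 1855 to 2363 genes and 1102 to 1912 sites against DMSO, 357 to 844 genes and 4 to 9 sites against 15 min, and 637 to 1318 genes and 266 to 588 sites for 1 h against 30 min. For the time course it gave 276 to 764 genes and 1568 to 2219 sites, and without the 2 libraries that stood apart 2172 genes were called. Members called higher numbered 17 to 19 in the erythroid list, 10 to 11 in heme and iron, 8 to 10 in the membrane skeleton and 10 to 15 among blood transcription factors; 7 to 9 stress genes and 4 histone genes were called lower. The site chr1:75496791-75497080 lost its call without 30 min replicate 6. Depth limits the lowest features most: the median SE was 0.409 in the lowest of 5 level groups of sites and 0.133 in the highest.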
